A study of Rattus norvegicus with 10 samples.

Results

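P2rx4 and P2rx7 encode ion channels that open when extracellular ATP binds to them, and their messenger RNA was read on arrays from 10 lacrimal glands of rats. The lacrimal gland makes most of the fluid of tears. All probe sets assigned to these gene symbols by the annotation of the Affymetrix rat array were taken. They numbered 2 of 8799, with 1 for P2rx4 (U47031_at) and 1 for P2rx7 (X95882_at), and are 2 of 4736 genes that the array names by a single symbol. Denervated glands (n = 5) were collected 7 days after the greater superficial petrosal nerve, which carries the parasympathetic supply of the gland, had been cut. The controls were 3 contralateral glands from the same time point, 1 gland from an unoperated animal and 1 gland collected 7 days after a sham operation. Sample titles name the 3 glands contralateral, whereas the description field puts them ipsilateral to the operated side, and the titles were followed. For strain, age, sex and number of animals, no label was at hand. Whether the glands of a group belonged to different animals is not stated, so the p-values reflect the variation among these samples alone, and that variation may be technical.

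P2X receptors are cation channels built from subunits around a central pore, and calcium enters the cell through them. P2X4 is common in epithelial cells and in macrophages, where much of it lies in lysosomes. P2X7 needs high ATP concentrations and is best known in macrophages, where it triggers the inflammasome and the release of interleukin-1 beta. In rat lacrimal acinar cells, ATP and P2X7 agonists raise intracellular calcium and cause protein secretion, and P2X7 signalling interacts with that of muscarinic and alpha1-adrenergic receptors. The question addressed was how these ATP receptors stood in the gland 7 days after it had lost its parasympathetic nerve.

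The genes are near neighbours on rat chromosome 12. In the RefSeq gene table of the GRCr8 assembly 1 entry, the pseudogene Rpl32-ps11, lies between them, and both are on the minus strand. The 250 bases before 1 annotated start of each gene (RefSeq, GRCr8, minus strand, 5′ to 3′) are shown because the members share a locus and were both low in denervated 2 and 5, though P2rx7 was also low in glands where P2rx4 was not. Capitals mark matches to any of 4 motifs searched on both strands. P2rx4 is at chr12:39523090-39523339 and P2rx7 at chr12:39594923-39595172.
P2rx4: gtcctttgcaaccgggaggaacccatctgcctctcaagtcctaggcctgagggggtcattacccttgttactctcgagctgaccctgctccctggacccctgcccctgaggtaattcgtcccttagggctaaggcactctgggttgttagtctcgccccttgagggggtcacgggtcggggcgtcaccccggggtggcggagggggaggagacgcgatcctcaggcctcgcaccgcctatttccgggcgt
P2rx7: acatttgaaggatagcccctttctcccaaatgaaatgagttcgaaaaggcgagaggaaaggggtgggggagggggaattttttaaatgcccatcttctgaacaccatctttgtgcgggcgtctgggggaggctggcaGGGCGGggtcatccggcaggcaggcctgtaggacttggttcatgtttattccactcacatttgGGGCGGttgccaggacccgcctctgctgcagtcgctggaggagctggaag
The P2rx7 window held 2 copies of the GC box GGGCGG, a motif present in 30.5% of 33469 RefSeq rat promoter windows of this length, and the P2rx4 window held 0. Neither window held the TATA box TATAAA (12.9% of windows), the CCAAT box CCAAT (34.0%) or the core of the interferon-stimulated response element (3.41%). No motif overlapped another in these windows. GC content was 64.0% for P2rx4 and 56.0% for P2rx7, against a median of 51.2% over all windows, and the windows held 15 and 9 CpG dinucleotides. These matches describe the letters only.

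Some arrays stood apart from the rest across many genes. Over 6118 tested probe sets, denervated 5 had the lowest mean correlation with the other arrays (0.765), and its highest was with denervated 2 (0.847). Denervated 2 had a mean correlation of 0.818, above that of the sham gland (0.789). It was closer to denervated 3 and 4 (0.860 and 0.876) than to denervated 5. Denervated 2 and 5 both carried high levels of connective tissue genes, given below. Contralateral 1, sham and denervated 1 shared a very high signal of 1 acinar gene, the secreted nuclease Dnase1, at 621186.2, 721536.6 and 329145.8, against 15270.7 or less in every other gland. The members' differences and the counts of the receptor and pathway lists are given with and without denervated 2 and 5. These were the 2 glands lowest in P2rx4, and the pair was chosen after the data were seen. The median intensity of an array lay between 554 and 979, and the number of arrays limits the precision. A floor was set at the 20th percentile, an intensity of 156.2, before taking log2, and values at it carry no order.

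P2rx4 had a high and even signal in 8 glands and a much lower one in 2 denervated glands. Its intensity was 33119.5, 31501.2 and 27817.3 in contralateral 1, 2 and 3, 41343.2 in the unoperated and 23516.2 in the sham gland. In denervated 1, 3 and 4 it was 36021.0, 31134.5 and 34780.5. In denervated 2 and 5 it was 7288.7 and 7724.5. The first 3 of these denervated glands thus lay within the range of the controls, and the other 2 lay below every control. Over the 8 glands other than denervated 2 and 5 the highest value was 1.76 times the lowest. Against the median of these 8 glands, denervated 2 was 4.43-fold and denervated 5 was 4.18-fold lower.

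Denervated glands had a mean P2rx4 log2 intensity of 14.18 ± 1.19 (SD, n = 5), and control glands one of 14.92 ± 0.30 (SD, n = 5). The log2 difference was -0.74 ± 0.45 (SE), with a 95% interval from -1.69 to 0.22 (limma adjusted p = 0.609). The exact permutation test over glands, two-sided, gave p = 0.333, where the smallest p this design allows is 0.00794. Against contralateral glands alone (14.91 ± 0.13, SD, n = 3) the difference was -0.73 ± 0.54 (SE, limma adjusted p = 0.809; exact p = 0.643, smallest possible 0.0357). Neither difference passed. Without denervated 2 and 5 the differences were 0.13 and 0.14. Leaving out the 2 lowest values of a group must raise its mean, so these values only describe how far the differences rested on them. Without contralateral 1, sham and denervated 1 the difference from all controls was -1.07 (limma adjusted p = 0.464).

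Ordered by mean log2 intensity of P2rx4, the unoperated gland came first (15.34), then the contralateral group (14.91), the sham gland (14.52) and the denervated group (14.18). Each step was smaller than the SD of the denervated group. The contralateral mean differed from that of the unoperated and sham glands by -0.021 ± 0.67 (SE, limma adjusted p = 0.998), and the test allows no exact p below 0.200 for 3 glands against 2. The SD of P2rx4 over the 5 denervated glands was matched or exceeded by 18.1% of tested probe sets.

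P2rx7 was dim, and its values split into glands with a clear signal and glands at the floor. In contralateral 1, 2 and 3 its intensity was 1271.8, 1186.1 and 139.1, and it was 1185.7 in the unoperated and 1198.4 in the sham gland. In denervated 1 to 5 it was 997.3, 130.5, 1807.1, 341.2 and 81.4. Contralateral 3 and denervated 2 and 5 were below the floor, at least 7.59-fold under the median of the 8 glands other than denervated 2 and 5. Denervated 4 was 3.48-fold below that median, and denervated 3 had the highest value of all. Controls and denervated glands overlapped, with both present below the floor, and denervated 3 lay above every control. The 4 controls with a clear signal lay within 1185.7 to 1271.8 of each other.

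For P2rx7 the mean log2 intensity of denervated glands was 8.75 ± 1.59 (SD, n = 5), and that of control glands 9.65 ± 1.32 (SD, n = 5). The log2 difference was -0.90 ± 0.79 (SE), with a 95% interval from -2.60 to 0.81 (limma adjusted p = 0.728, exact p = 0.429). With 2 denervated glands and 1 control gland at the floor, the size of this difference depended on the floor. It was -1.09 with a floor at the 10th percentile and -0.73 with a floor at the 30th. Against contralateral glands (9.27 ± 1.72, SD, n = 3) the difference was -0.52 ± 0.93 (SE, limma adjusted p = 0.930, exact p = 0.786). Contralateral glands differed from the unoperated and sham glands (10.21 and 10.23) by -0.95 ± 1.16 (SE, limma adjusted p = 0.981). None passed. All 6 exact p-values, for 2 genes and 3 comparisons, had a Benjamini-Hochberg adjusted value of 1.0.

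Single glands moved the P2rx7 values widely. Without contralateral 3 the difference from all controls was -1.49 (limma adjusted p = 0.561) and that from contralateral glands -1.51, while the latter was 0.0044 without contralateral 1 and -0.046 without contralateral 2. Without denervated 2 it was -0.53 against all controls and -0.15 against contralateral glands. The same values, -0.53 and -0.15, resulted without denervated 5, since both glands were at the floor. It was -1.41 and -1.03 without denervated 3, and without denervated 1 -0.82 against contralateral glands. Without denervated 2 and 5 together the differences were 0.082 and 0.46. For P2rx4 the differences were -0.40 and -0.39 without denervated 2, and -0.42 and -0.41 without denervated 5. Larger P2rx4 differences resulted without the other denervated glands. They were -0.98 and -0.97 without denervated 1, -0.92 and -0.92 without denervated 3, and -0.96 and -0.96 without denervated 4. The SD of P2rx7 over the denervated glands was matched or exceeded by 3.64% of tested probe sets.

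**Figure D1:**
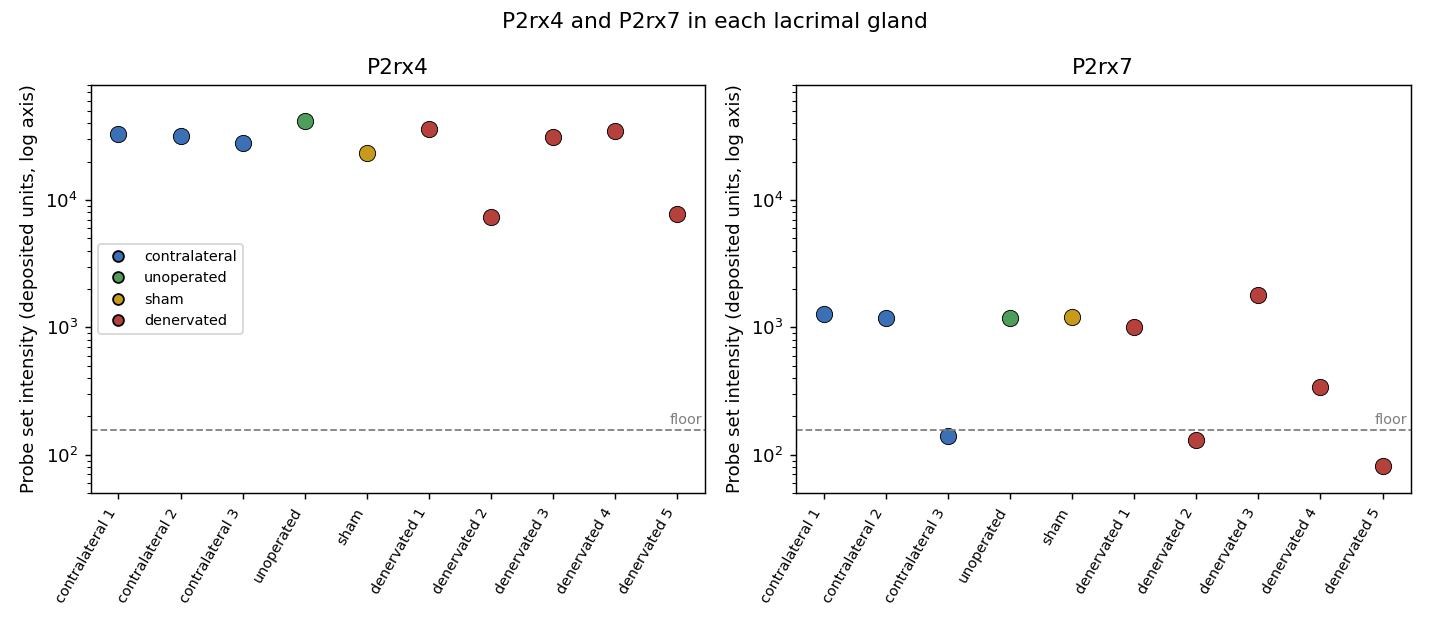
Deposited intensity (log axis) of the P2rx4 and P2rx7 probe sets in each of the 10 glands, 1 point per array, coloured by group, with the floor of 156.2 as a dashed line. P2rx4 was at 7288.7 and 7724.5 in denervated 2 and 5 and at 23516.2 or more elsewhere, and P2rx7 was below the floor in contralateral 3 and denervated 2 and 5.

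In denervated against control glands, 0 of the 2 members passed the limma threshold of 0.05 after adjustment, and 0 had an unadjusted p below it. The shares over all 6118 tested probe sets were 0% and 9.68%. Against contralateral glands, and for contralateral against unoperated and sham glands, 0 of the 2 members had an unadjusted p under 0.05, where 7.16% and 4.89% of all probe sets did. Both members had a log2 difference below 0, as did 55.4% of probe sets. A log2 difference as low as that of P2rx4 or lower was found in 12.8% of probe sets, and as low as that of P2rx7 in 8.52%. The members' differences were thus inside the bulk of the array.

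**Figure D2:**
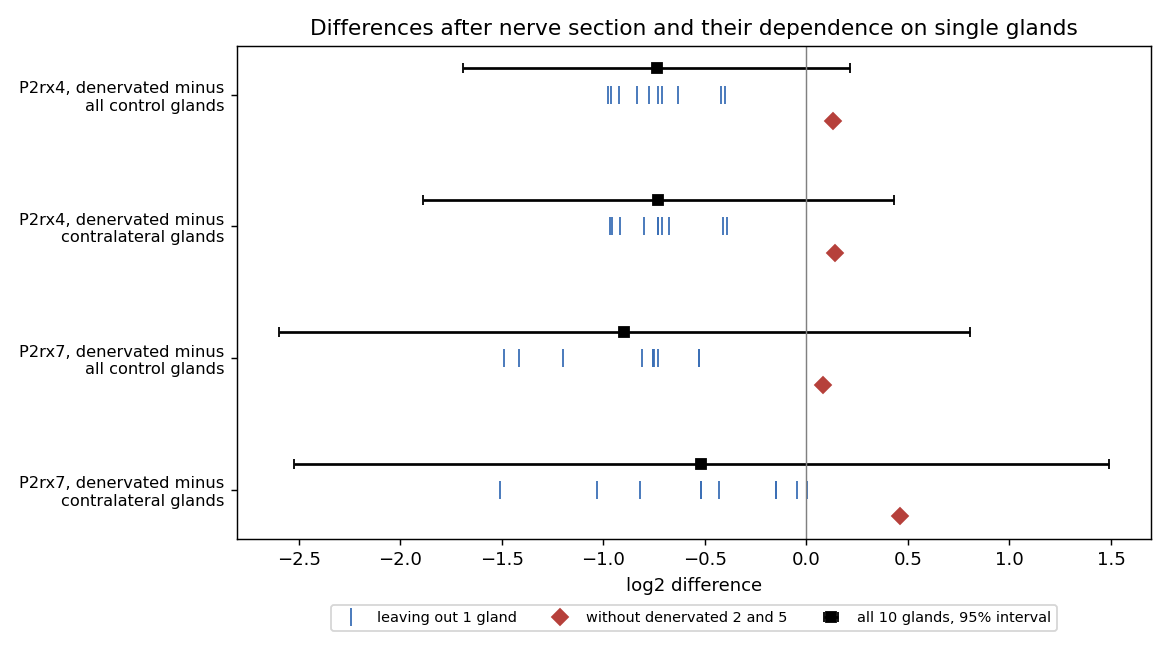
Log2 differences of P2rx4 and P2rx7 between denervated glands and all control or contralateral glands, as squares with 95% intervals from limma. Vertical ticks show the value after leaving out each of the 10 glands in turn and diamonds the value without denervated 2 and 5, which lay between 0.082 and 0.46. All 4 intervals include 0.

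Denervated 2 and 5 had the lowest P2rx4 values and were at the floor for P2rx7, together with contralateral 3. Over all tested probe sets, both lay below the 8 other glands in 6.37% and above them in 9.30%. For P2rx4 the lowest of the 8 others was 3.04 times the higher of the 2, a gap reached by 22 probe sets, 0.360%. These 2 glands are the lowest for P2rx4 itself, so this share does not measure how rare such a gap is over any 2 glands. Because these 2 glands lay apart from the rest for P2rx4, the relation between the genes was taken over the other 8 glands. Pearson's r of log2 intensity was 0.15 (exact permutation p = 0.681) and Spearman's rho -0.24 (exact permutation p = 0.582), from 1 relation tested. Without the unoperated and sham glands, which were farthest from the P2rx4 median, r was 0.41 over 6 glands. Over all 10 glands r was 0.70. Leaving out the 2 lowest P2rx4 values narrows its range, so the low r over 8 glands does not show that the genes are unrelated. Outside denervated 2 and 5, glands with little P2rx7 message did not stand out for P2rx4. Contralateral 3 had 86.1% of the 8-gland median of P2rx4 and denervated 4 had 107.6%, with P2rx7 at the floor and at 28.8%.

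The probe sets most like P2rx4 were those with the highest Pearson r of log2 intensity over the 10 glands, among 5000 tested probe sets of other single genes. They belonged to St6gal1, a Golgi enzyme that adds sialic acid to secreted glycoproteins (r = 0.972 and 0.957 at its 2 probe sets). Azgp1, a secreted zinc-binding glycoprotein, had r = 0.965. Chmp1a, an endosomal sorting protein, had r = 0.963, and Car6, the secreted carbonic anhydrase of saliva and tears, r = 0.957. For each of them denervated 2 and 5 lay below all other glands. Car6 had log2 intensities of 10.58 and 10.76 there, against 14.02 to 16.60 in the other 8. St6gal1 had 13.03 and 12.86 at its first probe set, against 15.80 to 17.10. These correlations rest on the same 2 arrays, and over the other 8 glands r was 0.78 for Azgp1, 0.56 for Car6, 0.48 and 0.38 for St6gal1 and 0.27 for Chmp1a. The r of P2rx7 with P2rx4 over the 10 glands, 0.70, was exceeded by 282 probe sets.

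P2rx7 was most like other genes. Tub, the tubby protein, had r = 0.958 over 10 glands and 0.95 over 8. Serpina1, the secreted protease inhibitor alpha-1-antitrypsin, had r = 0.935 and 0.932 at its 2 probe sets, and 0.88 at both over 8 glands. Phf7 had r = 0.914 and Anapc13, a subunit of the anaphase-promoting complex, r = 0.912. Anapc13 was at the floor in 3 glands and Tub in 1.

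Many marker genes of other cells were high in denervated 2 and 5, the 2 glands with low P2rx4 values. All 9 measured fibroblast genes were above all 8 other glands in both denervated 2 and 5. Decorin (Dcn), a matrix proteoglycan, had an intensity of 85868.7 and 393284.8 in these glands, against 29329.1 to 74868.2. The summed intensity of the fibroblast list was 247033 and 610096 in denervated 2 and 5, against 45026 to 150754 in the others. The 150754 was in denervated 3, where P2rx4, at 31134.5, lay within the range of the controls. Of 6 tested myoepithelial genes 5 were above all other glands in denervated 2 and 5 as well. The summed intensity of the 7 measured was 84978 and 57592 there, against 12381 to 30553. The mean log2 level relative to controls of 2 other lists was also above all other glands. It was 1.38 and 0.86, against at most 0.70, for 3 duct keratins, of which Krt19 was above all other glands by itself. The 0.70 was in denervated 3, where the myoepithelial list also had the highest level of the others (0.86). For 6 mast cell genes the level in denervated 2 and 5 was 0.80 and 1.39, against at most 0.65. Of them Cma1, Cpa3 and Mcpt1 were above all others. Mcpt1 and Ms4a2 were under the filter. Mcpt1 was at the floor in 3 denervated and 4 control glands. Ms4a2 was at the floor in 4 denervated glands, among them denervated 2 and 5, and in 1 control gland. Tpsb2 lay within the range of the others, and Fcer1a exceeded it in denervated 5 only. The endothelial list (-0.58 and -0.49, against -1.01 to 0.73) lay within the range of the others. The nerve and Schwann cell list (-0.19 and 0.98, against -0.40 to 0.44) and the T and natural killer cell list (0.58 and 0.75, against -0.52 to 0.70) exceeded it in denervated 5 only. No fibroblast or myoepithelial gene was at the floor in every gland. In bulk tissue, fewer cells of a type and less RNA per cell cannot be told apart. The part of these cell types in the P2rx4 values was not tested.

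Acinar genes did not share 1 direction in these glands. Of 8 measured, 3 were below all other glands in denervated 2 and 5. The acinar transcription factor Bhlha15 had 4464.4 and 6321.0, against 26051.5 to 103013.2. Rab3d, a GTPase of secretory granules, had 3102.3 and 3966.1, against 6185.4 to 7758.0. Chrm3, the muscarinic receptor of acinar cells, had 3411.6 and 3182.0 at its brighter probe set, against 3606.7 to 5386.9. At its other probe set it had 510.7 and 169.8, within the range of the others, 73.9 to 1000.1. Another 2, the chloride cotransporter Slc12a2 and the secretoglobin Scgb1c1, were above all other glands. The water channel Aqp5 had 16487.4 and 9223.6, within the range of the others, 6258.3 to 18936.9. The mean log2 level of the acinar list relative to controls was 0.16 and 0.15 in these glands, within -0.44 to 0.54 for the rest. Its summed intensity was 120017 and 101142, against 106220 to 780240, where Dnase1 alone carried the upper end. Without Dnase1 the sum over 7 genes was 106440 and 85871, within 58703 to 164394 for the other glands.

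Macrophages express both receptors, and their markers were set beside the members. Of 9 tested macrophage genes 8 were higher in denervated than in control glands, with 0 past the threshold by limma, 3 at an unadjusted p under 0.05 and a median log2 difference of 0.54. Over all 3621 tested genes, 1608 were higher, 182 of them at an unadjusted p under 0.05, and the median was -0.080. Itgam, the tested gene that was lower, had 234.5 and 66.9 in denervated 2 and 5, below all other glands (303.2 to 849.6). Csf1r was under the filter. The summed intensity of the 10 measured macrophage genes ran from 47449 to 123535 in denervated and from 33401 to 76063 in control glands. Lyz2 alone ran from 24274.3 to 49873.6 in denervated and from 13740.9 to 39267.4 in control glands. The list level was 0.92 in denervated 2, 0.95 in denervated 3, 0.75 in denervated 4 and 0.79 in denervated 5, against -0.31 to 0.20 in denervated 1 and the controls. P2rx7 was at the floor in denervated 2 and 5 and highest in denervated 3. The part of macrophages in the P2rx7 values was not tested. None of the macrophage markers was at the floor in all glands.

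**Figure D3:**
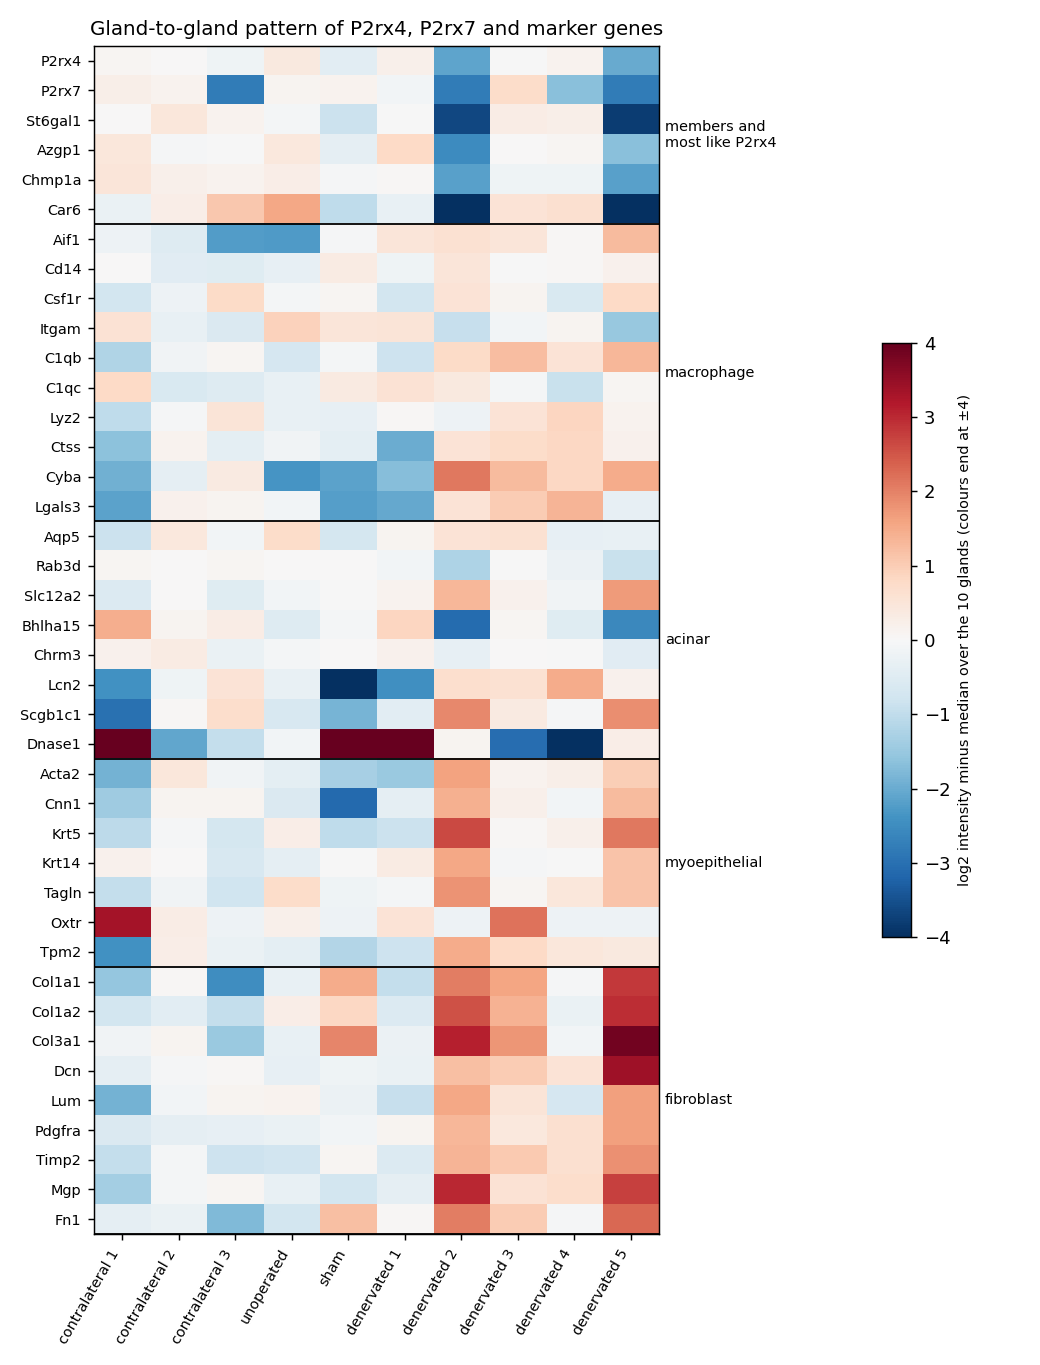
Log2 intensity minus the median over the 10 glands, 1 column per gland, for P2rx4, P2rx7, the genes most like P2rx4 and the measured macrophage, acinar, myoepithelial and fibroblast markers (red higher, blue lower, colours end at ±4). In denervated 2 and 5, P2rx4 was low, as were St6gal1 and Car6, which were picked by their r with P2rx4. Of 8 acinar genes 3 were below and 2 above all other glands there, while all 9 fibroblast genes were above.

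All 7 P2X subunit genes were on the array, with 12 probe sets, and 5 genes passed the filter on dim probe sets. All 5 had lower means in denervated glands, also under quantile and median scaling, and 0 passed by limma, with 0 at an unadjusted p under 0.05. Over all tested genes 55.6% were lower. Without denervated 2 and 5, 2 of the 5 were lower. P2rx3, a subunit of sensory neurons, differed by -0.99 ± 0.58 (SE, limma adjusted p = 0.598), and denervated 2 and 5, with 360.6 and 137.4, were below the other glands. P2rx2 differed by -0.30 ± 0.39 at its brightest probe set, by 0.033, -0.63 and -0.090 at 3 others, and 2 more were under the filter. P2rx6 differed by -0.35 ± 0.65. P2rx1 and P2rx5 were under the filter, with P2rx1 at the floor in 4 denervated glands and 1 control gland and P2rx5 in 2 denervated and 3 control glands.

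Among the P2Y receptors, which couple ATP and other nucleotides to G proteins, P2ry2 had the largest difference, 1.43 ± 0.58 (SE, limma adjusted p = 0.459). Its intensity in denervated 1 to 5 was 446.3, 1153.6, 778.9, 1055.7 and 1562.5. It was 430.6, 66.1 and 111.9 in contralateral 1, 2 and 3, 802.6 in the unoperated and 543.6 in the sham gland. Denervated and control glands overlapped, through the unoperated and sham glands. Every denervated gland was above every contralateral gland, 2 of which were below the floor. The difference from contralateral glands was 2.07 (limma adjusted p = 0.634), with an unadjusted limma p of 0.00404. The other tested P2Y receptors had lower means in denervated glands, P2ry4 by -0.67 ± 0.62, P2ry6 by -0.17 ± 0.51 and P2ry14 by -0.70 ± 0.55, and none passed. Without denervated 2 and 5 the 4 tested P2Y receptors were 2 higher and 2 lower, and their median went from -0.42 to -0.14. P2ry1 and P2ry12 were under the filter.

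Adenosine receptors respond to the nucleoside left when ATP is broken down. Adora2b differed by -1.10 ± 0.53 (SE, limma adjusted p = 0.525) and Adora2a by -0.67 ± 0.65, while Adora1 was under the filter. Adora2b was below the floor in denervated 1 and 4 (35.4 and 93.4) and Adora2a in denervated 5 (137.3). The sizes of these differences thus depend on the floor. Both tested adenosine receptors were lower also without denervated 2 and 5, with a median of -0.80 in place of -0.89. Chrm3, through which acetylcholine acts on acinar cells, differed by -0.15 ± 0.23 at its brighter and 0.17 ± 0.65 at its other probe set. The adrenergic receptors Adra1a and Adra1d differed by 0.049 ± 0.67 and -0.80 ± 0.64. None passed. Of these 3 receptor genes 1 was higher, and 2 were without denervated 2 and 5.

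**Figure D4:**
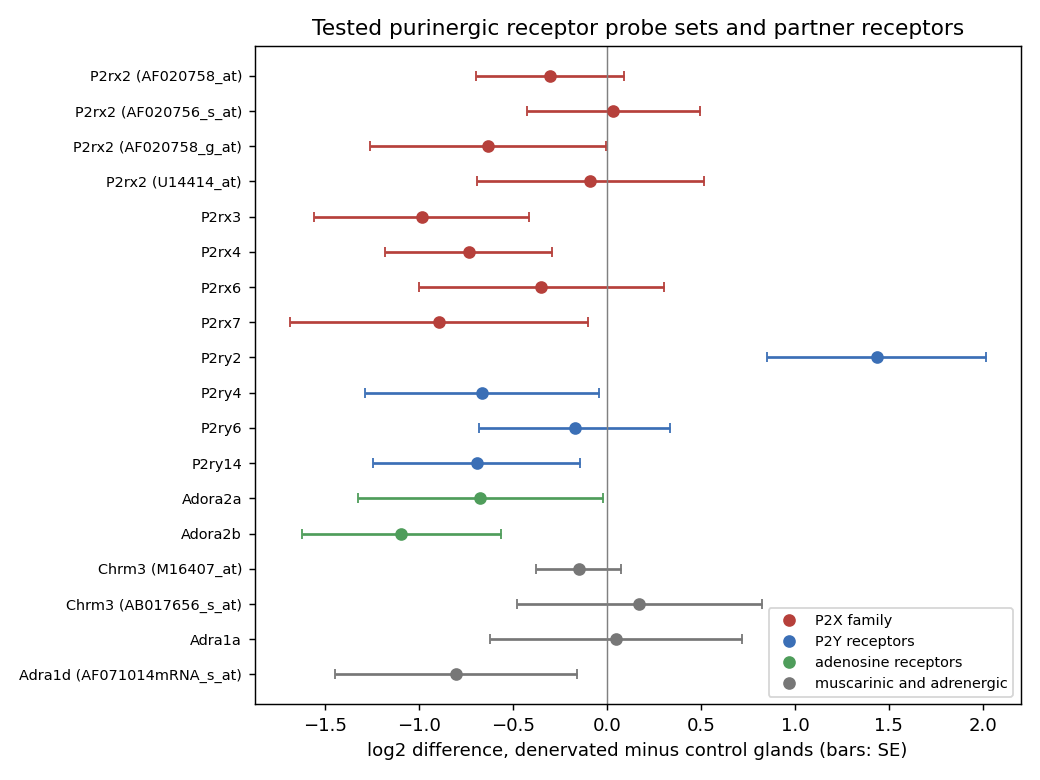
Log2 difference between denervated and control glands (points) with its SE (bars) for each tested probe set of P2X, P2Y and adenosine receptors and of the muscarinic and adrenergic receptors Chrm3, Adra1a and Adra1d. P2ry2, at 1.43, lay highest and Adora2b, at -1.10, lowest. For P2ry2 2 control glands were at the floor, and for Adora2b 2 denervated glands were.

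Genes that release, degrade or take up extracellular ATP and adenosine were measured for 14 of 27 listed, and 13 were tested. By limma 0 passed and 1 had an unadjusted p under 0.05, with 6 higher and 7 lower, a split that was 7 higher and 6 lower under median scaling. Over all 3621 tested genes 1608 were higher and 2013 lower, of which 182 and 185 had an unadjusted p under 0.05. Enpp3, an ectoenzyme that cleaves extracellular nucleotides, differed by 0.76 ± 0.32 (SE, limma adjusted p = 0.459). The list median was -0.055, and 0.035 with 7 higher and 6 lower without denervated 2 and 5. Of the inflammasome and interleukin-1 effectors of P2X7, 6 of 14 were tested and 5 were higher (all 6 under quantile and median scaling), with a median of 0.26 and 0 past the threshold by limma. Without denervated 2 and 5, 3 of the 6 were higher and the median was -0.0019. Txnip, which binds the inflammasome sensor NLRP3, differed by 1.45 ± 0.40 (SE, limma adjusted p = 0.434) and was the only member with an unadjusted p under 0.05. Casp1, the protease of the inflammasome, differed by 0.50 ± 0.31 and its substrate Il1b by -0.04 ± 0.68. These 2 were named after their values were seen.

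Calcium entry and signalling genes, which act on the calcium that P2X channels admit, were tested for 18 of 25 listed. Of these 8 were higher and 10 lower, with a median of -0.068, and median scaling gave 10 higher and 8 lower. Leaving out denervated 2 and 5 gave 7 higher and 11 lower, with a median of -0.089. By limma 0 passed and 1 had an unadjusted p under 0.05. Atp2a2, the calcium pump of the endoplasmic reticulum, differed by -0.59 ± 0.24 (SE, limma adjusted p = 0.459) at its brightest probe set. At its 3 others it differed by -0.054, -0.48 and -0.22. Among MAP kinases and phospholipases downstream of P2X receptors, 14 of 16 were tested, with 9 higher and 5 lower (11 and 3 under median scaling) and a median of 0.21. The counts were also 9 and 5 without denervated 2 and 5, with a median of 0.14. Again 0 passed by limma and 1 had an unadjusted p under 0.05, the phospholipase Pla2g6 (-1.36 ± 0.31 SE, limma adjusted p = 0.434). Median scaling moved the median of all probe sets from -0.079 to 0.039. Of all tested probe sets, 55.4% were lower and 9.68% had an unadjusted p under 0.05.

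Genes beside the locus had other patterns than the members. Among the 10 table entries on each side of P2rx4 and P2rx7, 5 were measured. Atp2a2, 2 entries from P2rx7, had r = 0.45 with P2rx4 and -0.10 with P2rx7 over the 10 glands. Camkk2, a calcium-dependent kinase 4 entries from P2rx4, had r = 0.01 and 0.23, and Anapc5 had -0.44 and -0.26. Fam216a had r = -0.08 and -0.15, and Vps29, of the retromer complex, -0.43 and -0.45. In denervated 2 and 5 none of the 5 lay below all other glands, and Anapc5 lay above them. Camkk2 differed by -0.16 ± 0.61, Anapc5 by 0.07 ± 0.21, Vps29 by 0.24 ± 0.25 and Fam216a by -0.0021 ± 0.37, and none passed by limma.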

How the data were processed

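Each deposited value is the linear intensity of 1 probe set on 1 array. The software behind this table is not given in the sources used here. The authors had scaled the arrays to a common level, as the deposited intensities show: means with 2% trimmed at each end differed by 0.0718%. Of 8799 probe sets 59 array controls were left out. Values were floored at the 20th percentile and logged (log2), and the 6118 probe sets with a mean above the 30th percentile were tested. Both members passed this filter. Symbols came from the platform annotation, updated by gene ID through RefSeq (GRCr8), and 7006 probe sets had 1 symbol, 308 several and 1426 none listed.

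Differences were tested with limma 3.58.1 in R 4.3.3 (lmFit and eBayes, trend on), with two-sided p-values adjusted by Benjamini-Hochberg across all tested probe sets. A fit of 2 classes gave denervated against control glands, and a fit of 3 classes the other comparisons. Exact permutation tests over glands used scipy 1.17.1. Members and lists were chosen with earlier results of these data known. A gene with several probe sets is represented by the brightest. Named genes were all listed receptors, pathway list members with an unadjusted p under 0.05, the 5 probe sets of highest and 3 of lowest Pearson r with each member, and measured neighbours. Single genes of the cell type lists were outside this rule and were named after their values were seen. Steps were tested on simulated data. Alternatives changed the scaling, the floor, the filter, the variance trend and the array weights, added blocks or left out glands. The fit without denervated 2 and 5 was added after the data were seen.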

Additional observations from a re-analysis of the deposited data

Results flagged for a closer look

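In 4 of 48 sets of 5 denervated glands, 1 gland lay far from the others by Dixon's criterion (critical value 0.71), which chance exceeds in about 1 of 20 sets. P2rx1 had a log2 intensity of 8.01 in denervated 4, with the other 4 at the floor of 7.29. Ties at the floor fix this ratio, and without the floor the gap was 0.347 of the range, under the critical value. P2rx2 had 12.36 in denervated 1, against 11.02 to 11.32 in the others. A dim probe set of Adra1d had 9.38 in denervated 3, against 7.29 to 7.75, and without the floor the ratio was 0.632, also under the critical value. Enpp3 had 13.07 in denervated 1, against 14.37 to 14.65. For P2rx4 and P2rx7 no single denervated gland was so far apart, since denervated 2 and 5 were low together.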

How the results depend on the processing

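The differences of P2rx4 and P2rx7 had no adjusted p under 0.05 under any alternative that gave a value, and their sign depended on which arrays entered. Denervated minus all control glands was 0.13 for both genes with sets of arrays as a block, and 0.13 and 0.082 without denervated 2 and 5. The sets were contralateral 1, sham and denervated 1, then denervated 2 and 5, then the rest, and the sample titles do not give them. The set of denervated 2 and 5 holds no control gland, so the block takes both glands out of the difference. The block is therefore not a separate check of the fit without them. Denervated minus contralateral glands was 0.14 for P2rx4 and 0.46 for P2rx7 under both of these settings, which coincide here because 1 of the sets is denervated 2 with 5. Leaving out each gland, P2rx7 against contralateral glands ran from -1.51 to 0.0044. Contralateral minus unoperated and sham glands ran from -0.43 to 0.39 for P2rx4 and from -1.47 to 0.043 for P2rx7, and was 0.31 for P2rx4 with median scaling. The number of passing probe sets against all controls was 1 with sets of arrays as a block and 0 to 69 leaving out each gland. The 69 came without denervated 1, and P2rx4 then had a limma adjusted p of 0.265 (unadjusted 0.0439). Against contralateral glands the number was 1 without a variance trend and 1 with array weights. With the label numbers 1 to 3 as a replicate block, P2rx7 differed by 0.086 and P2rx4 by -0.61, with 0 passing probe sets. Deviations of same-numbered glands correlated by 0.488, 0.0369 and 0.164, which does not show that the numbers pair the glands, and whether they share an animal is not stated. P2rx7 fell under the filter at the 50th percentile and has no value there. The cause of these changes was not tested, except that the settings without a gland use fewer samples. The floor limits P2rx7 in 3 glands.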

Other observations

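The genes least like P2rx4, with the lowest r of log2 intensity over the 10 glands, were Ppp1r1a, an inhibitor of protein phosphatase 1 (r = -0.937), Papss1, which makes the sulfate donor of the cell (r = -0.933), and Cma1, the chymase of mast cells (r = -0.929). In denervated 2 and 5 each lay above all other glands. Ppp1r1a had log2 intensities of 14.02 and 13.94 there, against 11.27 to 12.49, Papss1 13.43 and 13.17, against 12.33 to 12.74, and Cma1 12.77 and 13.43, against 10.22 to 11.42. Over the other 8 glands r was -0.56, -0.51 and -0.41. Least like P2rx7 were the glycolytic enzyme gene Pgk1 (r = -0.861), the myosin light chain gene Myl6b (r = -0.858) and the kinase gene Stk38 (r = -0.855).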
